A study of Mus musculus with 3 samples.

Results

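Mouse embryonic kidneys grown in serum-free medium with retinoic acid were compared with kidneys grown in full serum, to describe which parts of the serum profile retinoic acid alone did not replace and which it exceeded. The comparison used 2 of the 3 arrays of the series, 1 for each medium, and covered 19938 genes. All kidneys came from C57BL/6 embryos at embryonic day 11.5, lay on Transwell filters, and were cultured for 48 h in DMEM. The serum kidneys had 10% fetal bovine serum, and the retinoic acid kidneys had serum-free DMEM with retinoic acid, at a dose the labels do not state. The remaining array, from serum-free DMEM with neither addition, is given as the base level. Neither the number of embryos behind an array nor their sex is stated in the labels. RNA was measured on Affymetrix Mouse Gene 1.0 ST arrays.

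Each level below is the log2 of the deposited intensity, and unless stated otherwise 3 levels in a row stand in the order serum, serum-free, retinoic acid. A difference is the retinoic acid level minus the serum level. Genes were called higher or lower when they differed by at least 2-fold (1 on the log2 scale) and the larger level reached a floor of 7.12, the median of all gene-level values. With 1 array per medium there was no replicate, no error and no test, and every value describes these arrays alone. The number of arrays limits the precision. Where a gene had a further probe set at or above the floor, its difference lay within 0.33 of the first in 95% of 1077 probe sets, which bounds the disagreement between probes but not between kidneys.

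Retinoic acid is made from vitamin A (retinol) by oxidation, first to retinaldehyde and then to the acid, and it acts through RAR and RXR nuclear receptors that bind paired hexamers in DNA. In the embryonic kidney the stroma is its main source and the branching ureteric bud one of its targets, where it maintains the receptor gene Ret. Serum carries retinol, but also lipoproteins, hormones, growth factors and the lysophospholipids that signal through RhoA, actin, MRTF and SRF to smooth muscle genes and through YAP to matrix genes. Serum-free medium lacks these with or without retinoic acid, and their part in the differences below was not tested.

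In all, 106 genes were higher with retinoic acid than in serum, or 1.04% of the 10169 genes at or above the floor, and 83 were lower, or 0.816%. At a limit of 3-fold the counts were 26 and 20, and at 8-fold they were 2 and 3. The middle 50% of genes at or above the floor lay between -0.14 and 0.00, and the middle 95% between -0.63 and 0.58. Of the 106 higher genes, 50 were under the floor in serum, and of the 83 lower genes, 39 were under the floor with retinoic acid, so the size of these differences is uncertain. The members nearest the limit were Lgals3 at 1.02 and Cadm3 at 1.02 on the higher side and Glipr2 at -1.0007 and Sfrp2 at -1.0021 on the lower side. Just outside it lay Gdf10 at 1.00 (0.9953 unrounded), Itgb3 at 0.99, Sgpp2 at -0.99 and Nrarp at -0.98. Exactly equal levels on both arrays were found for 46.5% of genes, and such an equal value in summarised data is no measure of equal expression. The shares of 1.04% and 0.816% are the background for each count of list members below. Those counts are out of all measured members, and members with both levels under the floor could not be called.

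**Figure D1:**
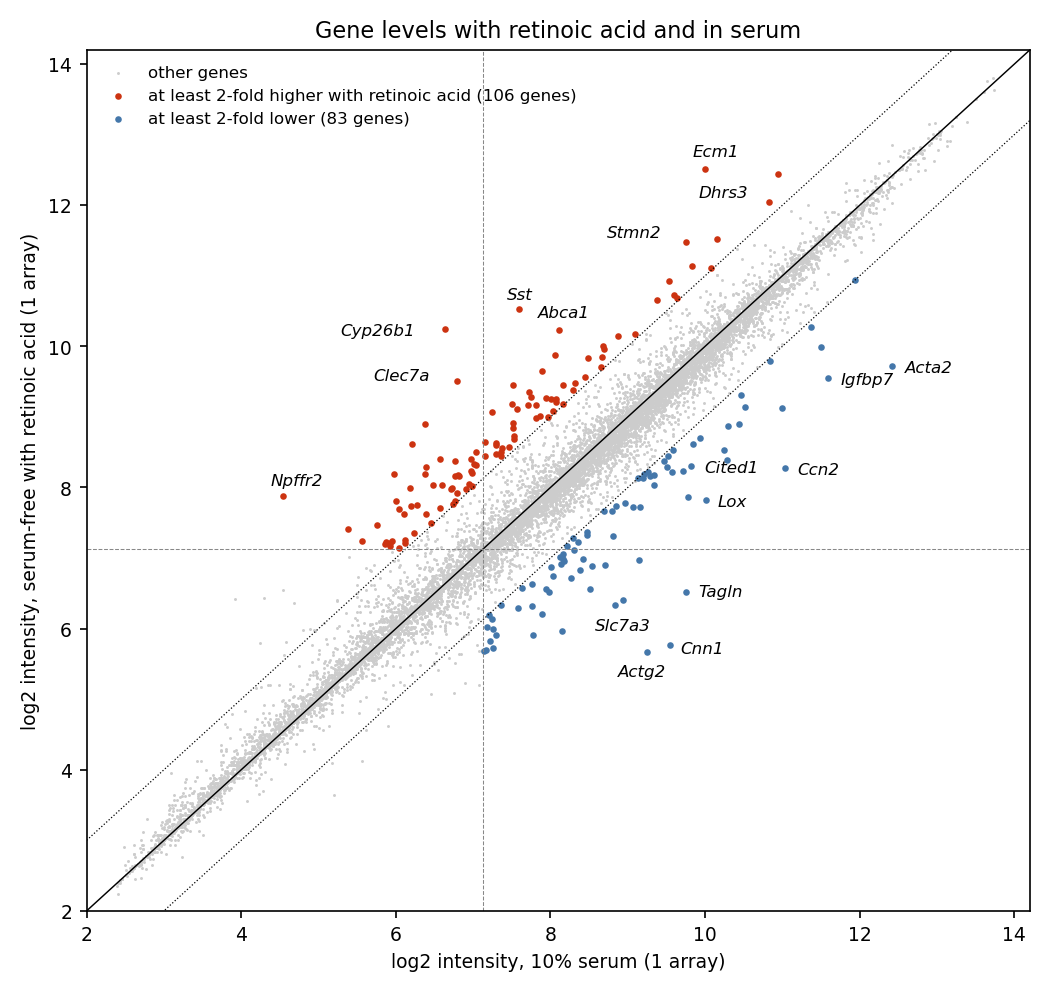
Log2 intensity of 19938 genes on the serum array (horizontal axis) and the retinoic acid array (vertical axis), 1 array each, with dotted lines at 2-fold and dashed lines at the floor of 7.12. The 106 higher genes (red) include Cyp26b1, Npffr2 and Sst, and the 83 lower genes (blue) include Cnn1, Actg2, Tagln and Acta2.

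Kidney markers were above the floor on all 3 arrays, among them Six2 and Cited1 of nephron progenitors, Ret, Gata3 and Cdh1 of the ureteric bud, and Foxd1 and Tcf21 of the stroma. Markers of skeletal muscle (Myod1, Myog, Mylpf), adrenal cortex and gonad (Nr5a1, Star, Cyp11a1), mast cells (Cpa3, Cma1) and T cells (Cd3e) lay under the floor on every array, as did Sox10 of glia. The sex-linked transcripts differed between the arrays. Xist, made in female cells, was at 10.84, 11.48 and 9.79, while the Y-linked genes Kdm5d, Uty and Eif2s3y differed by 0.66, 0.45 and 0.26. The part of embryo sex in the differences below was not tested, and sex and medium cannot be told apart. In whole explants, fewer cells of a type and less RNA per cell cannot be told apart either. Housekeeping genes had a median difference of -0.06 over 16 measured genes, with 0 past 2-fold.

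The 3 largest decreases with retinoic acid were in the contractile filament of smooth muscle, the tissue that wraps the ureter and the vessels. Of 17 measured genes, 13 of them at or above the floor, 5 were lower and 0 were higher. The share lower among all genes at or above the floor was 0.816%. The list had a median difference of -0.41, against 0.00 over all genes. Cnn1, which encodes the actin-binding protein calponin, was at 9.54 in serum, 6.79 without it and 5.77 with retinoic acid, 13.6-fold lower than in serum. The enteric actin gene Actg2 was at 9.25, 7.07 and 5.67, and Tagln, which encodes transgelin, at 9.76, 7.84 and 6.52. For each of these the serum array stood alone at the top and the retinoic acid array was the lowest, under the floor. Adding 32 to every intensity, which shrinks differences between dim values, gave -3.16 for Cnn1, -2.95 for Actg2 and -2.85 for Tagln. Acta2 (smooth muscle actin) kept a high level throughout, at 12.42, 11.11 and 9.72, and Myl9, the regulatory light chain of myosin, was at 10.99, 9.78 and 9.13. Both stayed well above the floor, so their differences of -2.70 and -1.86 do not rest on low intensities.

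The filament genes were not lower to the same degree. Myh11, the smooth muscle myosin heavy chain, was under the floor on every array, at 6.89, 5.89 and 5.89. The tropomyosin genes Tpm1 and Tpm2 differed by -0.85 and -0.76, the myosin kinase gene Mylk by -0.37 and the caldesmon gene Cald1 by -0.30. Des (desmin) was at 9.29 on both arrays, Tpm4 at 12.35 on both, and the light chain gene Myl6 differed by -0.18. The genes called lower are thus the actins of smooth muscle, their binding proteins Cnn1 and Tagln, and Myl9. The other filament genes named here were not called, among them the muscle genes Des and, under the floor, Myh11. The summed intensity of the 17 genes was 23509, 16427 and 13428 on the 3 arrays.

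Regulators of the ureter mesenchyme and smooth muscle did not share that deficit as a list. Of 19 measured regulators 0 were past 2-fold in either direction, 10 had differences above 0, 8 were below 0, and the median was 0.11. Tbx18, which marks ureter mesenchyme, was at 9.43, 8.75 and 9.97, Tshz3, which acts in ureter muscle differentiation, at 9.76, 9.50 and 10.45, and the forkhead gene Foxf1 at 8.46, 9.09 and 9.25. These were higher with retinoic acid than in serum by 0.54, 0.69 and 0.79, short of the limit. Srf itself, which encodes the factor that binds contractile gene promoters, was at 9.63, 9.50 and 9.34. Its coactivator genes were at 8.61 on all 3 arrays for Mrtfa and at 9.67, 9.88 and 10.21 for Mrtfb. Myocd, the muscle-restricted coactivator, was under the floor throughout. Pericyte markers went the other way, with Pdgfrb at -0.59 and Rgs5 at -0.89. The part of a change in muscle cell number was not tested.

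Targets of YAP and TEAD, a pathway that reads cell tension and serum lipids, were split. Of 18 measured genes 2 were lower, and both belong to the CCN family of secreted matrix proteins. Ccn2 was at 11.03, 8.98 and 8.27, and Ccn1 at 10.28, 9.05 and 8.39, with the retinoic acid array lowest in both. The other members lay between -0.77 for Ankrd1 (under the floor on every array) and 0.56 for Tgfb2, and the list median was -0.14. Among SRF and actin cytoskeleton targets 0 of 18 were past 2-fold, the median was -0.19, and the lowest were Pdlim5 at -0.97 and Fhl1 at -0.86. Immediate early genes, which serum induces within minutes, had 1 of 27 lower. That was Nr4a1, an orphan nuclear receptor, at 8.002, 7.70 and 6.87. Myc, at 11.23, 10.92 and 10.33, and Egr1, at 10.12, 10.18 and 9.62, differed by -0.90 and -0.51.

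The promoters of 3 of these lower genes, chosen after the matches were seen, are shown because their letters hold motifs of the factors above. Each window runs from 250 bases before to 50 bases after a transcription start in RefSeq (GRCm38.p6), written 5′ to 3′ on the gene's strand. Capitals mark GGAATG or its reverse complement CATTCC, the core bound by TEAD factors, in Acta2 (chr19:34255324-34255623, minus strand) and Ccn1 (chr3:145649936-145650235, minus strand), and the CArG box, the site of SRF, in Myl9 (chr2:156775214-156775513, plus strand). The CArG box was searched in its strict form only, CCWWWWWWGG with W for A or T. Looser forms, such as ccctatatgg and ccttgtttgg in the Acta2 window, were neither marked nor counted.
Acta2: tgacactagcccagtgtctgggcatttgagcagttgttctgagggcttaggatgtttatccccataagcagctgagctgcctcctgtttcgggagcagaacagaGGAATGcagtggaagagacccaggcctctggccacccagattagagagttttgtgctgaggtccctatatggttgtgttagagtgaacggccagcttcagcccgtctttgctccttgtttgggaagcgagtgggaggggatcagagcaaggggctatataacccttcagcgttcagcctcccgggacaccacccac
Ccn1: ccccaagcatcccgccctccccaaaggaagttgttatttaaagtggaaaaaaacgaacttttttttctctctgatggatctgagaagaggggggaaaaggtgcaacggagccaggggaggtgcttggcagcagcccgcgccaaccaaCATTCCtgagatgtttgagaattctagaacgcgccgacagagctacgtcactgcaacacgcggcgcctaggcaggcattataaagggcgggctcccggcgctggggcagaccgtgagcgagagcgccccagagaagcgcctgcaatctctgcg
Myl9: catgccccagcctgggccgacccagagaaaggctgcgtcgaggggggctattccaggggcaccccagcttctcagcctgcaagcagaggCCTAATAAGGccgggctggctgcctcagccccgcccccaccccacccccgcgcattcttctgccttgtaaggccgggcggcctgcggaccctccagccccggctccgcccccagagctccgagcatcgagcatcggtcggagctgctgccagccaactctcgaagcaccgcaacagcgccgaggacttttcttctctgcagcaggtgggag
The match begins 146 bases before the start in Acta2, 103 in Ccn1 and 161 in Myl9. Both strands were searched, and 0 of these matches overlap a match to another motif searched. Of the 83 lower genes 57 had a window in the table, of which 11 (19.3%) held GGAATG and 3 (5.26%) a strict CArG box. Among the higher genes the counts were 13 of 76 (17.1%) and 2 of 76 (2.63%). The shares were 13.8% and 1.59% of genes at or above the floor, and 16.6% and 1.81% of all 27025 genes with a window. The other 2 lower genes with a strict CArG box were Cited1 and Glipr2. Of the contractile filament list 14 genes had a window, of which 6 (42.9%) held GGAATG and 2 (14.3%) a strict CArG box. The former were Acta2, Cald1, Lmod1, Mylk, Smtn and Tpm1, and the latter Myl6 and Myl9. Of these carriers only Acta2 and Myl9 were called lower, while Cnn1, Actg2 and Tagln were called lower and are not among the carriers. A match is a description of the letters and not a bound site.

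**Figure D2:**
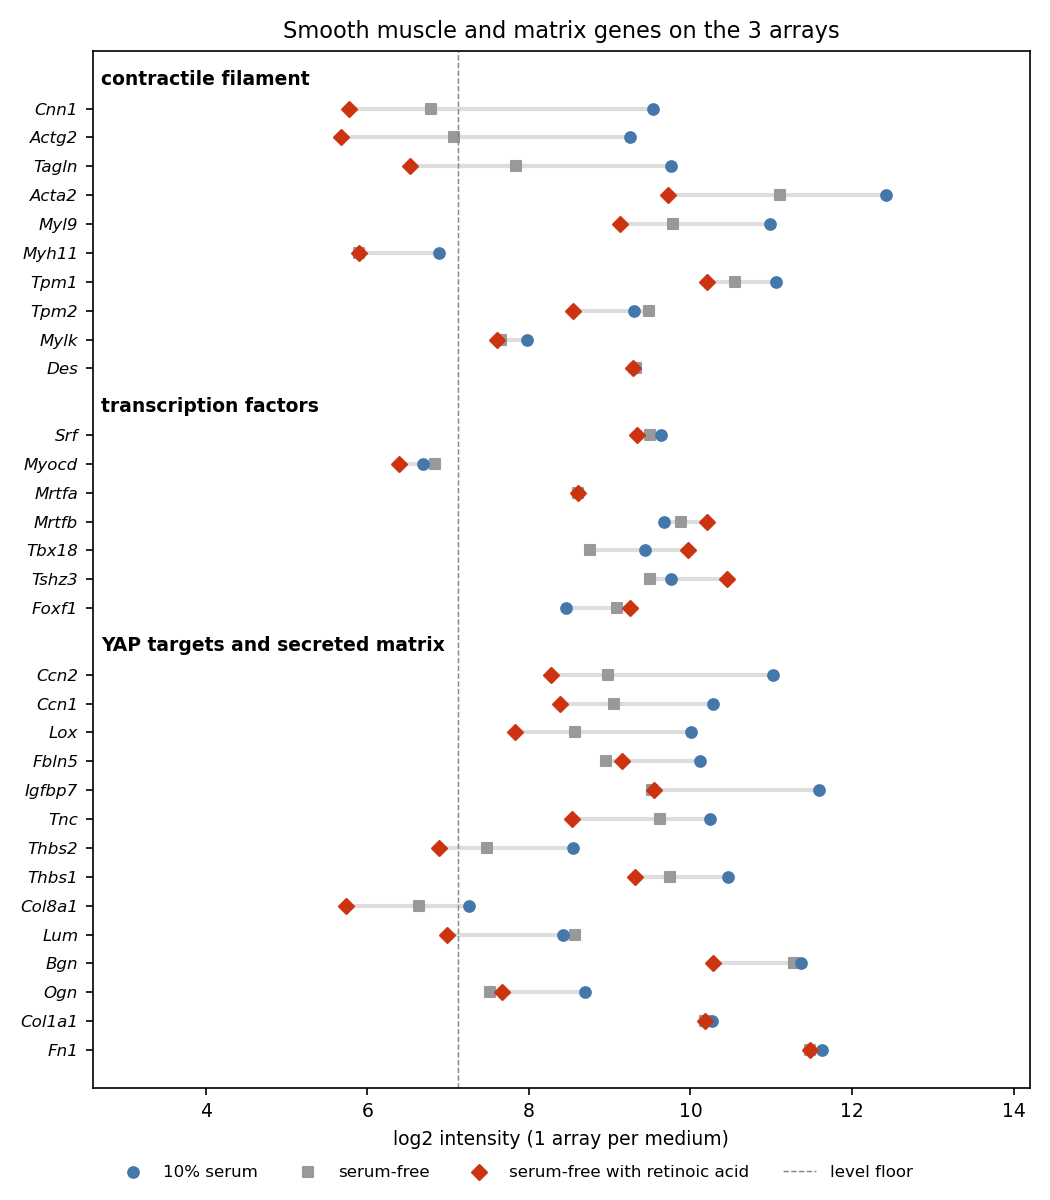
Log2 intensity (horizontal axis) of contractile, regulator and matrix genes in serum (circles), serum-free medium (squares) and serum-free medium with retinoic acid (diamonds), 1 array each, with the floor of 7.12 dashed. Cnn1, Actg2, Tagln, Acta2, Myl9, Ccn2, Ccn1 and Lox are ordered serum, serum-free, retinoic acid from high to low, while Mrtfb, Tbx18, Tshz3 and Foxf1 are highest with retinoic acid.

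Genes of secreted matrix proteins were the next group with members below serum on the retinoic acid array. In a list of 28 collagens and stromal matrix genes, 27 of them at or above the floor, 6 were lower and 1 was higher, with a median of -0.08. Among all genes at or above the floor 0.816% were lower and 1.04% higher. Igfbp7, a secreted binding protein of vessels and stroma, was at 11.59, 9.52 and 9.55, so the array with retinoic acid matched the serum-free array. Ogn, a small leucine-rich proteoglycan, had the same order at 8.69, 7.52 and 7.66. Lum and Bgn, proteoglycans of the same family, differed instead between the arrays with and without retinoic acid. Lum was at 8.42, 8.57 and 6.98 and Bgn at 11.36, 11.28 and 10.27. Tnc, which encodes tenascin C, stepped down over the media at 10.25, 9.62 and 8.53, and so did Col8a1 at 7.25, 6.64 and 5.73. Fibrillar collagens were not past 2-fold, with Col1a1 at -0.09, Col1a2 at -0.08 and Col3a1 at -0.03, nor did fibronectin (Fn1) at -0.15. The member that was higher is Ecm1, a secreted glycoprotein of the renal stroma, at 10.00, 7.17 and 12.52.

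Among elastic fibre and cross-linking genes 1 of 15 was lower and the median was 0.00. Lox, the oxidase that cross-links collagen and elastin, was at 10.01, 8.57 and 7.83. Fbln5, an elastic fibre adaptor, was at 10.11, 8.95 and 9.15, and Loxl1 differed by -0.72. Of the fibre scaffold genes, Mfap2 was listed at 12.25 and Fbn2 at 9.89 on both arrays, Eln (elastin) differed by -0.12, and Fbn1 is not analysed here. In the TGF-beta list 2 of 19 were lower, the thrombospondin genes Thbs2 at 8.54, 7.48 and 6.89 and Thbs1 at 10.46, 9.74 and 9.32. The ligand gene Tgfb3 was at 10.22, 9.54 and 10.94, above serum by 0.72, and the TGF-beta target Tgfbi differed by 0.23. Other secreted or matrix-modifying members of the 40 largest decreases were the protease gene Prss35 at -1.87, the Wnt antagonist gene Frzb at -1.43, C1qtnf12 at -1.39 and the calcium-binding annexin gene Anxa1 at -1.39.

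Genes of the early nephron were the third group with members below serum. The list held 27 measured genes of the early nephron and the pretubular aggregate before it, the first structures that progenitors form. Its median was -0.57, the lowest of the 57 lists over all measured members. Over members at or above the floor its median was -0.58. By that measure the contractile filament list (-0.76) and the ATF4 amino acid response list (-0.65) were lower. Of the 27 genes 4 were lower and 0 higher. The 4 were Dkk1, a secreted Wnt antagonist, at 9.78, 8.82 and 7.86, Heyl, a Notch target, at 9.94, 9.56 and 8.70, Lfng, which modifies Notch receptors, at 8.79, 8.36 and 7.67, and Sfrp2, a secreted Wnt modulator, at 11.94, 11.56 and 10.94. In each the serum array was highest and the retinoic acid array lowest. The Notch ligand gene Jag1, at 9.65, 8.999 and 8.89, and the transcription factor gene Osr2, at 9.99, 9.35 and 9.19, had the same order without reaching 2-fold.

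Other genes of the same list were at the serum level or between it and the serum-free level. Wnt4, the inducer of the nephron, was at 8.92, 7.49 and 8.92, and the Notch ligand gene Dll1 at 7.43, 6.42 and 7.43. The serum and retinoic acid arrays gave the same level for both to 2 decimals, with the serum-free array lower. Lhx1, a factor of the renal vesicle, was at 8.71, 6.79 and 8.07, and Papss2, which makes the sulfate donor for matrix, at 8.73, 6.84 and 8.14. These lay between the serum-free and serum levels. The list therefore held genes at the serum level with retinoic acid, genes part of the way to it, and genes below even the serum-free level.

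In the ureteric bud, the epithelial tube that branches into the collecting system, the tip and the trunk differed in their lists. In the tip list of 19 genes 2 were lower and 0 higher, and the median was 0.00. Ret, the receptor for GDNF, was at 9.58, 8.42 and 9.92, Gfra1, its co-receptor, at 11.10, 10.36 and 11.25, and the matrix protease gene Adamts18 at 7.64, 6.97 and 8.59. These 3 were highest with retinoic acid, by less than 2-fold over serum. Of their neighbours in the pathway, Wnt11, a Ret target, was at 8.19, 7.52 and 7.85, and Etv5, a factor downstream of Ret, at 10.34, 9.94 and 9.90, so both stayed below serum. The 2 lower genes were the transporter gene Slco4c1, at 7.76, 5.45 and 6.31, and Met, the receptor of hepatocyte growth factor, at 8.17, 7.98 and 6.96. Gdnf, the ligand from the mesenchyme, was at 9.41, 9.31 and 9.15.

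In the trunk list of 26 genes 2 were lower and 0 higher, and the median was -0.25. Tfap2b, a transcription factor of the distal nephron and duct, was at 8.51, 8.25 and 6.56, and Cdh16, the kidney-specific cadherin, at 9.26, 9.33 and 8.22. Both had nearly the same level in serum and in serum-free medium and stood apart with retinoic acid. The related factor gene Tfap2a had the same shape at 8.73, 8.89 and 7.87, and Gata3 was at 10.63, 10.49 and 10.02. By contrast Calb1, which encodes a calcium-binding protein of the duct, was at 11.67, 9.73 and 11.91, and the keratin gene Krt19 at 7.25, 6.50 and 7.90, at or above serum. Among the 40 largest decreases the tight junction gene Cldn1 also stood apart with retinoic acid only, at 7.98, 8.09 and 6.52.

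Of 21 nephron progenitor genes 2 were lower and 1 was higher, and their median was -0.23. Cited1, which marks uninduced progenitors, was at 9.82, 10.44 and 8.30, and the homeobox gene Meox2 at 9.84, 10.13 and 8.61. Meox1, of the same family, ran the other way at 8.69, 8.19 and 10.00. Six2 was at 11.03, 11.26 and 10.39, Osr1 at 10.82, 11.16 and 10.19, and the Wnt agonist gene Rspo1 at 9.85, 9.91 and 9.04, with differences of -0.63, -0.63 and -0.80. For Cited1, Meox2, Six2, Osr1 and Rspo1 the retinoic acid array was the lowest of the 3. Wt1, needed for the progenitors and later the podocytes, was at 10.85, 10.65 and 11.16. In the stroma list 1 of 24 genes was higher (Ecm1) and 0 were lower, and the median was 0.13. Its patterning gene Foxd1 differed by -0.14, while the giant cadherins Fat4, at 9.53, 9.93 and 10.45, and Dchs1, at 9.23, 9.60 and 10.09, which signal from stroma to progenitors, were above serum by 0.92 and 0.86.

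Signalling lists echoed these members. Among 30 Wnt genes 3 were lower, Dkk1, Sfrp2 and the antagonist gene Dkk2 at 8.13, 8.44 and 6.92, and the feedback target Axin2 differed by -0.10. Among 21 Notch genes 2 were lower, Heyl and Lfng, and Nrarp, a Notch feedback gene, lay just outside the limit at 8.51, 8.71 and 7.53. In the FGF and GDNF list 0 of 26 were past 2-fold (median -0.09), nor were any of 24 BMP genes (median -0.02) or 13 hedgehog genes (median 0.00).

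Genes of amino acid supply and sterol synthesis stayed near their serum-free levels. Targets of ATF4, the factor of the amino acid response, had 3 of 31 lower, 0 higher and 25 below 0, with a median of -0.47. Slc7a3, a transporter of cationic amino acids, was at 8.84, 6.40 and 6.34, and Asns, which makes asparagine, at 11.50, 10.27 and 9.99. Chac1, which degrades glutathione, was at 8.80, 7.33 and 7.31. In each the arrays without serum lay close together, whether or not retinoic acid was present. Psat1 of serine synthesis, at 11.41, 10.54 and 10.49, and the leucine transporter gene Slc7a5, at 11.57, 10.90 and 10.63, showed the same order short of 2-fold. The mitochondrial folate gene Aldh1l2, among the 40 largest decreases, was at 7.94, 6.34 and 6.56. Atf4 mRNA itself differed by -0.27.

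All 20 measured genes of cholesterol biosynthesis were below serum, with a median of -0.54, but 0 of them reached 2-fold. Insig1, which restrains SREBP processing, was at 10.95, 9.77 and 9.99, the isomerase gene Idi1 at 10.68, 9.35 and 9.71, and Hmgcs1, which starts the pathway, at 10.75, 9.92 and 10.20. The retinoic acid levels of these 3 lay between those of the other media. In fatty acid synthesis 1 of 17 genes was lower. That gene, Me1 (malic enzyme), was at 9.71, 8.34 and 8.24, and its further probe set differed by -1.37. The desaturase gene Scd1 was at 11.00, 9.30 and 10.04, while the synthase gene Fasn differed by 0.09. Nqo1, a quinone reductase that is a target of NRF2, was 1 of 17 oxidative stress genes and lower, at 8.48, 7.15 and 7.33. Mitosis genes had 21 of 24 differences below 0 and a median of -0.24, with 0 past 2-fold, and DNA replication genes a median of -0.02 over 24.

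Among the rest of the 40 largest decreases were the carbonic anhydrase gene Car4, at 9.14, 6.76 and 6.97, the kinase-like gene Map3k7cl, at 8.94, 7.004 and 6.40, and the potassium channel subunit gene Kcne3, at 8.15, 6.91 and 5.97. Vgll3, a cofactor of TEAD factors, was at 8.71, 8.54 and 6.91, the adhesion gene Vcam1 at 7.88, 7.88 and 6.21, and Emp1 at 10.44, 10.57 and 8.91. These last 3 did not differ between serum and serum-free medium by more than 0.17 and were lower with retinoic acid only. Cyp1b1, a cytochrome that can oxidise retinol and is a target of the aryl hydrocarbon receptor, had that shape too, at 9.57, 9.51 and 8.22. The small chaperone gene Cryab was at 8.38, 7.66 and 6.83. The chaperone gene Hspb1, a member through the heat shock list, was at 8.16, 7.86 and 7.06, and its further probe set differed by -1.07. Ccl11, a chemokine gene, was at 8.16, 8.88 and 6.99. Dbh, which makes noradrenaline, was at 8.21, 9.30 and 7.17, and 1 of 18 sympathoadrenal genes was lower.

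Retinoic acid exceeded serum first in genes that limit retinoic acid. Of 19 measured genes of retinoid synthesis, transport and breakdown, 11 of them at or above the floor, 2 were higher and 0 lower. The share higher among all genes at or above the floor was 1.04%. Cyp26b1, the hydroxylase that destroys retinoic acid, was at 6.63, 6.60 and 10.25. Its level was under the floor in both other media, and the difference became 3.25 once 32 was added to each intensity. Dhrs3, which reduces retinaldehyde to retinol, was at 10.83, 8.73 and 12.05. Stra6, the receptor that takes up retinol, was at 9.94, 9.14 and 10.70, above serum by 0.76. Cyp26a1 was under the floor on every array, at 4.995, 4.42 and 5.57.

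Among genes of retinoic acid synthesis, 2 stood below serum without reaching 2-fold. Aldh1a2, the main retinaldehyde dehydrogenase of the stroma, was at 11.37, 11.50 and 10.54, and Rdh10, which oxidises retinol, at 11.07, 11.30 and 10.41, differences of -0.82 and -0.66. The binding protein gene Crabp2 differed by -0.55 and Crabp1 by -0.28. Aldh1a2 and Rdh10 were thus lowest, and Cyp26b1 and Dhrs3 highest, on the retinoic acid array, while the whole list had 7 genes above 0, 6 below and 6 equal, with a median of 0.00. Of 13 receptor and cofactor genes 0 were past 2-fold, and the median was 0.19. Rarb was at 10.41, 8.43 and 11.37, just short of 2-fold over serum, and Rarg at 8.36, 7.98 and 8.85. Rara, Rxra and Rxrb had the same level on the serum and retinoic acid arrays.

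Promoter windows that hold a direct repeat of the retinoid hexamer with a spacer of 5 bases, the classical form of a retinoic acid response element, are shown for 3 genes, chosen after the matches were seen, with the hexamers in capitals. They are those of Rarb (chr14:16575427-16575726, minus strand), Tnfsf13b (chr8:10006217-10006516, plus strand) and Cyp26a1 (chr19:37697558-37697857, plus strand), from RefSeq (GRCm38.p6).
Rarb: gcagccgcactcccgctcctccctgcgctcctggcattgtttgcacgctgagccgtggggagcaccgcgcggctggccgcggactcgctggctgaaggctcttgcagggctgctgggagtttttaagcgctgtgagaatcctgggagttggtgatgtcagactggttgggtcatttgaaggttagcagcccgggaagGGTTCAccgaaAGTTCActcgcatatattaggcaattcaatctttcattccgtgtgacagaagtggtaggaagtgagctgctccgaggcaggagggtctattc
Tnfsf13b: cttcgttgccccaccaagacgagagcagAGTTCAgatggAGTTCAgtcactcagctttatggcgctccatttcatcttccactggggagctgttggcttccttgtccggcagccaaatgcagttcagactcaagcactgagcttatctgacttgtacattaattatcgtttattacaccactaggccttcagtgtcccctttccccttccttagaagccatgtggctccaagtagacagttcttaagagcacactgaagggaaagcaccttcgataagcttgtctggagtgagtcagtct
Cyp26a1: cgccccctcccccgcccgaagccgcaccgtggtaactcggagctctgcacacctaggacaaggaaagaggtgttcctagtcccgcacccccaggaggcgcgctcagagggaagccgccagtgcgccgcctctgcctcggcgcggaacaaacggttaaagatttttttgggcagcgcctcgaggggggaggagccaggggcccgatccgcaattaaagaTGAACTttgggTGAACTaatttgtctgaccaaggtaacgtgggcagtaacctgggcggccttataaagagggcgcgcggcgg
The repeat lies 53 to 37 bases before the start in Rarb, 222 to 206 in Tnfsf13b, the first of 2 windows of that gene, and 32 to 16 in Cyp26a1. Searched on both strands, the repeat was found in 31 of 27025 genes with a window (0.115%), of which 11 are on the array. Of these 11 genes 9 had differences above 0, 2 were equal and 0 were below 0, where 21.0% of all genes were above 0 and 32.4% below. Only 6 of the 11 were at or above the floor, all 6 of them above 0. Cyp26a1, Ppbp and Prss27 lay under it, so their differences are uncertain. Hbb-y, at 12.20, 12.47 and 12.39, and Blvrb, at 8.995, 9.30 and 9.13, were highest in serum-free medium. Prss27, at 6.56, 6.76 and 6.76, had the same level with and without retinoic acid. Tnfsf13b, Rarb, Syndig1, Prokr2, Cyp26a1 and Ppbp were highest with retinoic acid. The part of the absence of serum was not tested. Tnfsf13b, a cytokine of B cells, was at 7.90, 5.83 and 9.65 and was the only one of the 11 past 2-fold. Next came Rarb at 0.96, Cyp26a1 at 0.58 and Syndig1 at 0.51, and the rest lay between 0.00 and 0.38. Repeats spaced by 2 bases were found in 1 of 76 higher genes with a window, Slc7a7, and those spaced by 1 base in 0. No match says only that these letters are not in this window.

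HOX genes of paralog groups 1 to 5, which pattern the anterior trunk, numbered 14, with a median of 0.28, 10 of them above 0 and 0 past 2-fold. The highest were Hoxa4 at 7.39, 7.13 and 8.15, Hoxc5 at 7.70, 7.46 and 8.33, and Hoxa3 at 7.62, 7.58 and 8.25. Groups 6 to 13 had a median of 0.00 over 23 genes, with 8 above and 9 below 0. Among responsive genes of other tissues, the transcriptional repressor gene Hic1 was at 9.54, 9.08 and 10.37 and the transglutaminase gene Tgm2 at 8.36, 7.93 and 9.06, both above serum by less than 2-fold.

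**Figure D3:**
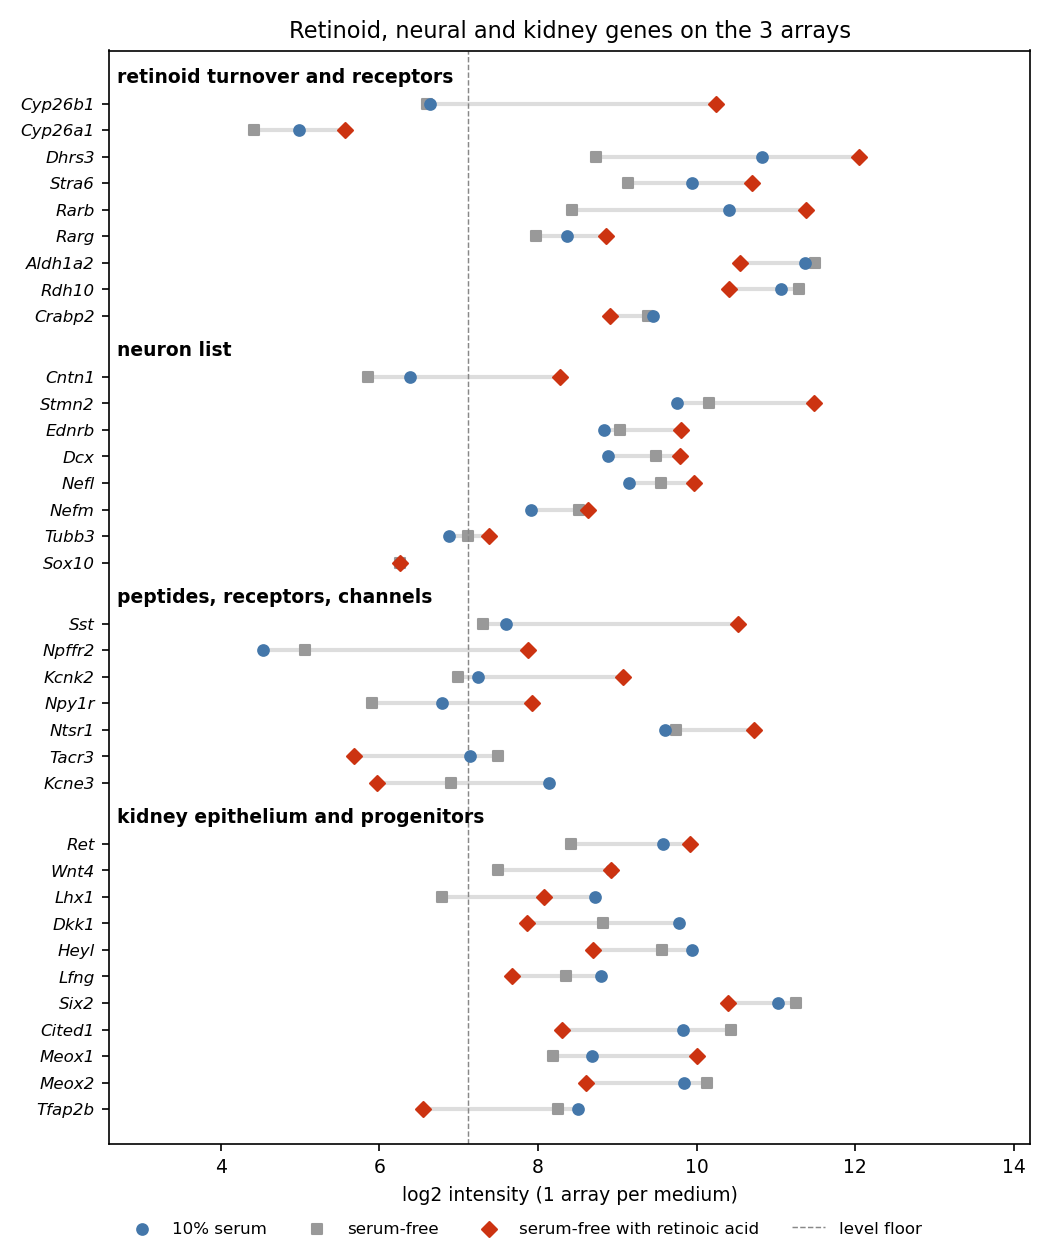
Log2 intensity (horizontal axis) of retinoid, neural and kidney genes in serum (circles), serum-free medium (squares) and serum-free medium with retinoic acid (diamonds), 1 array each, with the floor of 7.12 dashed. Cyp26b1, Sst and Npffr2 stand far to the right with retinoic acid only, Wnt4 coincides in serum and retinoic acid, and Cited1, Meox2 and Tfap2b are lowest with retinoic acid.

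Macrophage genes were a second group above serum. The yolk sac gives rise to macrophages that settle in the kidney at this stage, where they clear dying cells. Of 24 measured identity and growth factor genes 5 were higher, 0 were lower and 19 were above 0, with a median of 0.75. Csf1r, the receptor that macrophages need to survive, was at 7.74, 9.08 and 9.28, the Fc receptor gene Fcgr3 at 7.15, 8.63 and 8.65, and Irf8, a lineage factor, at 6.98, 7.98 and 8.21. For these 3 the retinoic acid array was the highest, close to the serum-free array. Spi1, which encodes the lineage factor PU.1, was at 7.36, 8.96 and 8.44, and Pf4 was at 6.24, 6.28 and 7.36. Cd68, a lysosomal marker, was at 8.77, 10.70 and 9.54, and Adgre1 (F4/80) at 7.47, 8.65 and 7.89, so these lay between the other media. The summed intensity of the 24 genes was 5213, 12343 and 8801. Cd14, Cd163 and Itgam were under the floor on every array.

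Complement, Fc receptor and Ms4a genes had 6 of 14 higher and a median of 0.81, the highest of the lists. The C1q chains, which tag debris for uptake, were at 7.04, 8.44 and 8.50 for C1qa, at 9.53, 11.22 and 10.93 for C1qb and at 8.49, 10.34 and 9.84 for C1qc. The Ms4a genes, membrane proteins of macrophages, were lower with retinoic acid than without serum. Ms4a4a was at 6.57, 8.41 and 7.71, Ms4a7 at 6.04, 8.04 and 7.14, and Ms4a6c at 6.76, 8.80 and 7.80. Summed, the 14 genes stood at 2895, 8399 and 5513. Other immune cells, with 19 measured genes, had 0 past 2-fold and 1 at or above the floor. Of 9 measured class II antigen presentation genes, H2-Ab1 alone was at or above the floor. It was lower with retinoic acid, at 7.21, 6.58 and 5.83.

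Within the 25 phagocytic and scavenger receptors 4 were higher and the median was 0.00, or 0.40 over the 16 at or above the floor. Clec7a, the receptor for beta-glucan, was at 6.79, 8.64 and 9.51, and Timd4, which binds phosphatidylserine on dying cells, at 6.21, 6.88 and 8.62. Both were highest with retinoic acid. Stab1, a scavenger receptor, was at 7.81, 8.96 and 9.17. In contrast Gpnmb, at 9.15, 11.32 and 9.77, Cd36, at 9.20, 11.08 and 9.79, and Lgals3, at 8.17, 10.16 and 9.19, peaked in serum-free medium. Some macrophage genes with retinoic acid were thus at or above their serum-free level, and others lay between it and serum. Among the 40 largest increases with known roles in macrophages or other leukocytes were Ccl6, at 6.38, 7.09 and 8.90, Tec, a kinase, at 7.52, 8.28 and 9.46, Lcp2, a signalling adaptor, at 6.57, 8.26 and 8.40, P2ry13, at 6.18, 8.11 and 7.999, and Mpeg1, a pore-forming protein, at 7.51, 9.29 and 9.18. The chemokine gene Ccl3, a member through the cytokine list, was also higher, at 9.37, 10.91 and 10.66. The part of macrophage number in these differences was not tested.

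Lipid handling accompanied them. Abca1, which exports cholesterol, was at 8.11, 9.58 and 10.23, and Abcg1, its partner, at 7.46, 8.84 and 8.57. Apoe, the apolipoprotein that accepts it, was at 10.94, 12.48 and 12.44, and Apoc1 at 6.97, 8.17 and 8.40. These were 4 genes with a high serum-free level that retinoic acid did not bring back to serum. Of 14 liver X receptor targets and sterol efflux genes 3 were higher and the median was 0.02 (-0.04 with each array centred on its median), with lipogenic and other targets below serum, such as Scd1 at -0.96, Srebf1 at -0.24 and Abcg5 at -0.54. Of 22 lysosome and lipid genes 4 were higher and 17 were above 0 (median 0.45), with the lipid droplet gene Plin2 at 9.64, 11.02 and 10.68 and the protease gene Ctsk at 6.11, 6.31 and 7.21. Selenop, a selenium carrier, was at 10.15, 11.16 and 11.53. The 24 endothelial genes, with 0 past 2-fold, had a median of 0.13.

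**Figure D4:**
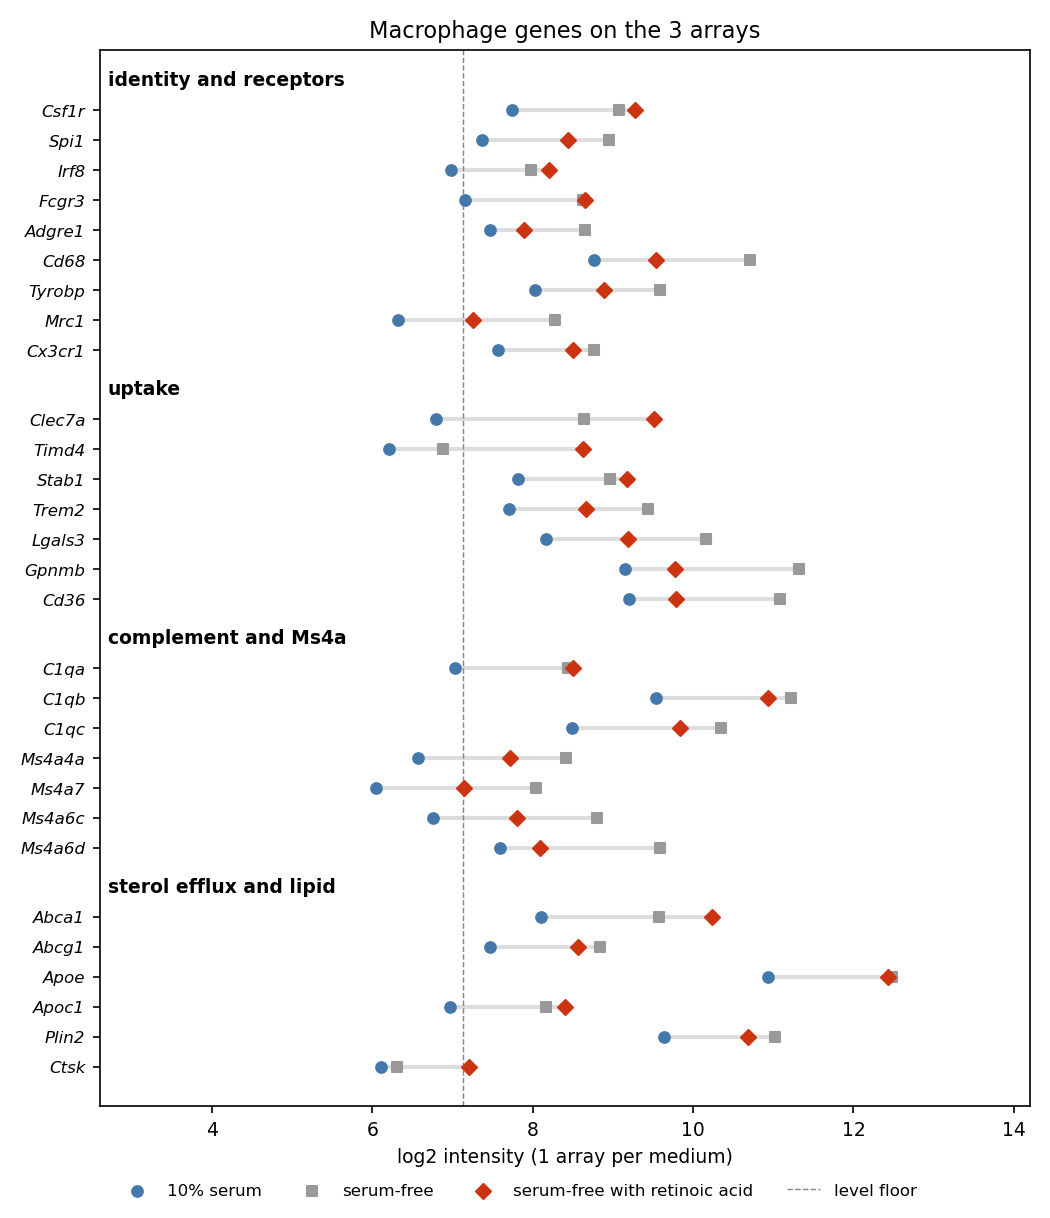
Log2 intensity (horizontal axis) of macrophage genes in serum (circles), serum-free medium (squares) and serum-free medium with retinoic acid (diamonds), 1 array each, with the floor of 7.12 dashed. Serum is the lowest array for every gene drawn, and retinoic acid is the highest for Clec7a, Timd4, Csf1r and Abca1 but lies between the other arrays for Gpnmb, Cd36 and the Ms4a genes.

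Neuronal genes were a further excess. Of 21 measured genes of neurons and glia 2 were higher and 15 were above 0, with a median of 0.36. Stmn2, a tubulin regulator of growing axons, was at 9.75, 10.15 and 11.49, and Cntn1, an axonal adhesion gene, at 6.39, 5.86 and 8.28. Dcx, a tubulin-binding gene of young neurons, was at 8.89, 9.49 and 9.79, the neurofilament gene Nefl at 9.15, 9.55 and 9.96, and the endothelin receptor gene Ednrb of neural crest at 8.84, 9.04 and 9.81. These last 3 were highest with retinoic acid without reaching 2-fold. Phox2a of autonomic neurons was at -0.18 and Snap25, a synaptic gene, at -0.17. The summed intensity of the list was 8246, 9682 and 12759. The sympathoadrenal list went the other way, with 11 of its 18 measured genes below 0, 4 above and a median of -0.14. Among the 40 largest increases, genes known from neurons were the calcium sensor gene Hpca, at 6.76, 6.53 and 8.38, Rit2, at 6.00, 6.16 and 7.80, Slitrk1, at 6.48, 6.49 and 8.03, and Lrrc7, of the postsynaptic density, at 5.98, 5.87 and 8.19. Each was under the floor in both other media. The nicotinic receptor gene Chrna3, chosen after its values were seen, was at 7.52, 8.09 and 8.69. The part of the number of neurons was not tested.

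On the log2 scale of the deposited intensities, peptide signalling genes had the largest single excesses after Cyp26b1. Of 35 measured genes for neuropeptides, their receptors and channels, 5 were higher and 2 lower. Sst (somatostatin) was at 7.59, 7.31 and 10.53, 7.64-fold over serum, and the neuropeptide FF receptor gene Npffr2 at 4.54, 5.06 and 7.88. Npffr2 was under the floor in both other media, so the size of its difference is uncertain. With 32 added to each intensity, that difference fell from 3.34 to 2.28, below Sst at 2.74, Ecm1 at 2.48 and Clec7a at 2.42. The potassium channel gene Kcnk2 was at 7.25, 6.996 and 9.07, the neuropeptide Y receptor gene Npy1r at 6.79, 5.91 and 7.93 and the neurotensin receptor gene Ntsr1 at 9.60, 9.74 and 10.73. In all 5 the serum and serum-free levels lay within 0.88 of each other and the retinoic acid level stood above both. The 2 lower genes were Kcne3, described above, and Tacr3, a tachykinin receptor gene, at 7.14, 7.49 and 5.69. The 19 genes of this list under the floor in serum and with retinoic acid included Tac1, Gal, Vip and Nts.

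Other members of the 40 largest increases were the integrin ligand gene Edil3, at 8.05, 8.21 and 9.88, the serotonin receptor gene Htr2b, at 5.75, 5.72 and 7.47, and the interferon-induced gene Rsad2, at 6.38, 6.78 and 8.20. Of the 18 measured genes of the interferon list Rsad2 alone was past 2-fold. Outside that list, and chosen after their values were seen, the interferon-inducible genes Iigp1, at 7.29, 6.42 and 8.60, and Ifi207, at 7.52, 9.08 and 8.84, were also higher. Enpp3, an ectonucleotidase, was at 7.73, 8.04 and 9.35, the protocadherin gene Pcdh11x at 7.70, 7.53 and 9.17, Arhgap20 at 7.57, 7.39 and 9.12 and Perp, a desmosome gene and p53 target, at 6.27, 6.68 and 7.76. For Enpp3, Pcdh11x, Arhgap20 and Perp the serum and serum-free arrays differed by no more than 0.41 and retinoic acid stood apart. Adh1, an alcohol dehydrogenase that can oxidise retinol and was chosen after its values were seen, was at 8.01, 7.38 and 9.26. The carbonic anhydrase gene Car11 was at 8.65, 8.73 and 9.71.

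**Figure D5:**
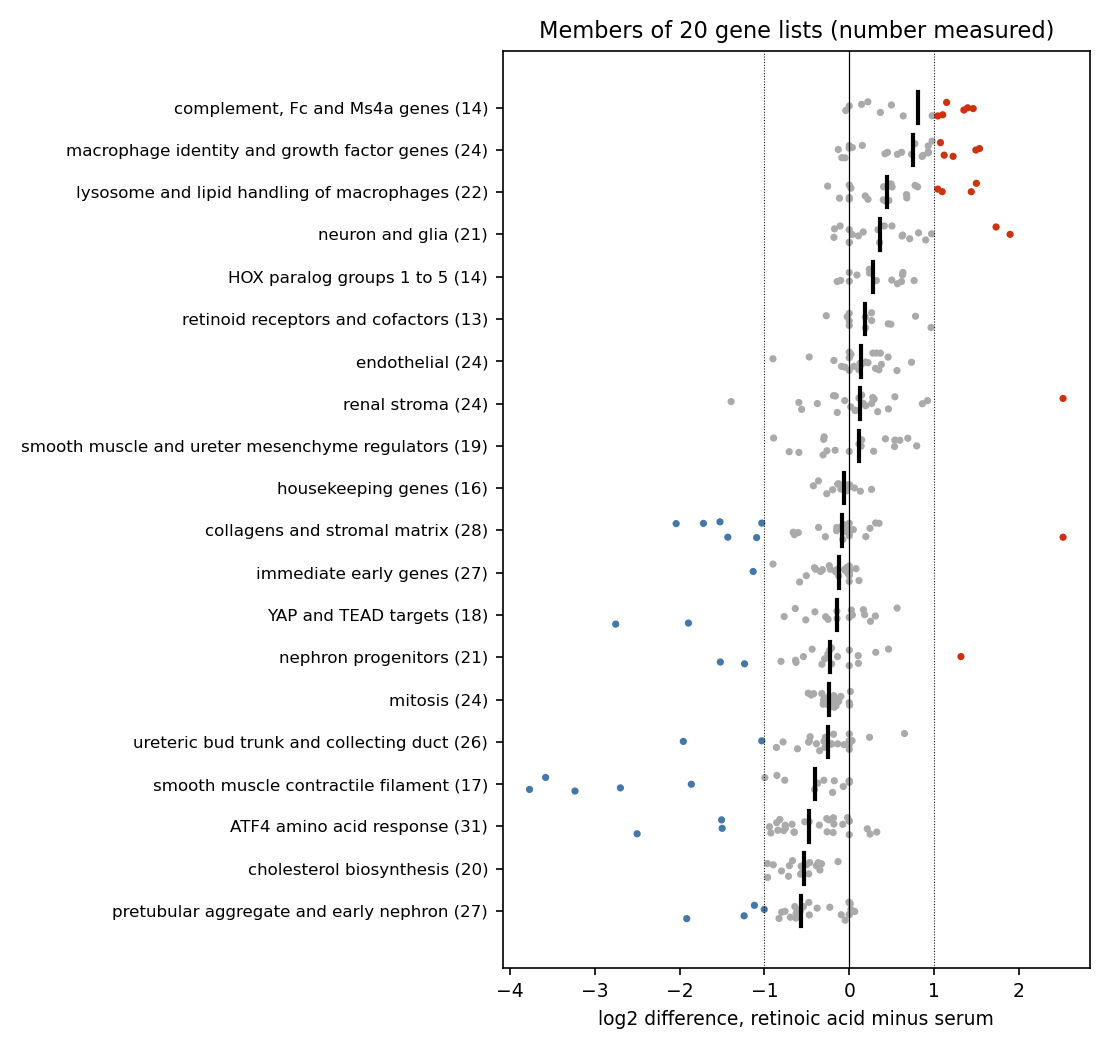
Log2 difference, retinoic acid minus serum (horizontal axis), of every measured member of 20 of the 57 gene lists, with the number measured in brackets. Points are genes (red at least 2-fold higher, blue at least 2-fold lower with the larger level at or above the floor, grey neither), black bars are medians and dotted lines mark 2-fold. Medians run from 0.81 for complement, Fc and Ms4a genes to -0.57 for the early nephron list.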

How the data were processed

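Mouse kidney RNA (250 ng per array, per the labels) was hybridised to 3 arrays, 1 per medium. The deposited table gives a linear intensity for each probe set, made by the authors with Affymetrix Expression Console 1.1 and RMA, per the submitters' processing notes. RMA subtracts background, equalises the arrays by quantiles and summarises probes by median polish, which can compress small differences and hide a shift common to most genes. The labels do not state its settings. Here log2 of the deposited intensities was analysed without rescaling.

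Single symbols were carried by 21789 of 35556 probe sets, and 21698 of these matched RefSeq (GRCm38.p6) by gene ID. A gene with several probe sets (999 of 19938) took the brightest on average over the 3 arrays. Members and 57 lists were chosen with earlier results of these data known. Named genes were drawn from the 40 largest differences per direction, without gene models and multi-copy families. List members past 2-fold, up to 6 further members of a described list and a fixed set of 20 were added. Not every gene that met this rule is named above. Others named inside a list to show its range were chosen after their values were seen. Listed genes without a single-symbol probe set are not analysed here. Lists were described by counts and medians, with no test. The size rule and the motif search were tested on simulated data. Python 3.11.15, pandas 2.3.3, numpy 2.4.6, matplotlib 3.10.9 and, for cyclic loess, R 4.3.3 with limma 3.58.1 were used.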

Additional observations from a re-analysis of the deposited data

Results flagged for a closer look

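Probe sets outside the gene-level comparison also differed between the retinoic acid and serum arrays. Of 1621 probe sets that carry several symbols, 790 were at or above the floor, and 48 of those (6.08%) were at least 2-fold higher with retinoic acid while 2 were at least 2-fold lower, with differences from -1.31 to 2.44. Of 12146 probe sets with no symbol in the table used here, 2975 were at or above the floor, and 53 (1.78%) were at least 2-fold higher while 11 were lower, with differences from -2.88 to 3.93. The share higher among gene-level members was 1.04%. None of these probe sets was named, and the causes were not tested.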

How the results depend on the processing

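The counts of 106 higher and 83 lower genes stayed within 1.5 times under all 8 alternatives. The higher count ran from 83 (floor at the 60th percentile) to 129 (no floor) and the lower count from 61 (32 added to the intensities) to 103 (no floor). Cyclic loess gave 113 and 78, and centring each array on its median, which moved the median of all genes by -0.05, gave 97 and 94. List medians and differences of single genes do not use the floor, so the settings that change or drop it could not move them. None of the 57 list medians moved by 0.33 or more, a limit wider than many of these medians, and 0 of the 189 genes past 2-fold changed sign. Medians near 0 did so in 6 lists. Under cyclic loess DNA replication went from -0.02 to 0.01 and oxidative stress from -0.03 to 0.01, and so did the difference of Wnt4 (-0.0039 to 0.03). Under median centring the liver X receptor list went from 0.02 to -0.04, responsive genes of other tissues from 0.01 to -0.05, p53 targets from 0.02 to -0.04 and erythroid genes from 0.02 to -0.03. Of 203 single genes 30 moved by 0.33 or more with 32 added, and Nkain2 and Srsy with another choice of probe set. No paired analysis was possible because each medium has 1 array. For the same reason no array could be left out. Low intensities limit the size of differences for members under the floor on one side.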
